A study of Mus musculus with 6 samples.

Results

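The genes described here encode SNAREs, synaptotagmins and the factors that prepare secretory granules for exocytosis. They were chosen by name as protein-coding genes of the syntaxin, syntaxin-binding, SNAP, VAMP, RIM, complexin, Munc13, Doc2, CAPS, SV2, synapsin and synaptotagmin families. There were 75 such genes among 54532 in the table. Poly(A)-selected RNA was sequenced from whole pancreatic islets of mice aged 7 weeks. 3 libraries came from Ythdc1-betaKO mice, in which the m6A reader gene Ythdc1 is knocked out in beta cells (bKO), and 3 from Ythdc1flox/flox mice (control). Per the labels, the replicates of a group are independent biological ones. Which promoter drives the Cre recombinase, whether control mice carried Cre and whether islets were pooled is not given in the sources used here.

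Exocytosis of an insulin granule uses the same machinery as release at a synapse. A VAMP protein on the granule pairs with a syntaxin and a SNAP protein on the plasma membrane, and the SNARE bundle they form pulls the membranes together. Munc18, Munc13, CAPS and RIM proteins dock and prime the granule, complexins bind the assembled bundle, and synaptotagmins and Doc2 proteins sense the calcium that triggers fusion. Other syntaxins and VAMPs of the same families serve traffic between the endoplasmic reticulum, the Golgi apparatus, endosomes and lysosomes.

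The libraries held between 16863329 and 18240339 reads. Ythdc1 was at 3.81, 3.79 and 3.87 FPKM in bKO and at 5.76, 6.46 and 6.18 FPKM in control. FPKM are fragments per kilobase of gene length, here scaled by a size factor per library and not by its read total. All 3 bKO libraries were below all 3 control libraries, including bKO replicates 2 and 3, whose free-text descriptions name Ythdc2 and Ythdc3 while their genotype label gives Ythdc1. The 6 beta-cell markers checked were abundant, with summed levels of 130714 to 139809 FPKM in bKO and 200791 to 222408 FPKM in control. Insulin transcripts took 15.2 to 16.2% of the reads in bKO and 21.6 to 23.3% in control, so the share left to all other genes differed between the groups.

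Most of the machinery was at similar mRNA levels in both groups, with a few large differences at single family members. Rims3 and 6 other members were lower in bKO, and Cplx1, Sv2c, Unc13a, Stx16 and 3 others were higher. Of the 75 genes, 58 reached 0.5 FPKM in at least 3 libraries and were tested. With limma on log2(FPKM + 1) and Benjamini-Hochberg adjustment over all 15717 genes tested, 7 members (12.1%) were higher in bKO and 7 (12.1%) lower at an adjusted p under 0.05. Among all genes tested 8.96% were higher and 11.4% lower, 20.3% in either direction against 24.1% of the members, so the members were called about as often as other genes. Cplx1, Sv2c and Syt6 passed the filter only through their bKO libraries, and without them 4 of 55 members (7.27%) were higher. The median difference of the members was -0.01 on the log2 scale, as it was for all genes, and 27 of the 58 lay within 0.1 of zero. Groups did not overlap for 23 of the 58 members (39.7%), beside 40.1% of all genes tested. In whole islets, fewer cells of a type and less RNA per cell cannot be told apart.

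**Figure D1:**
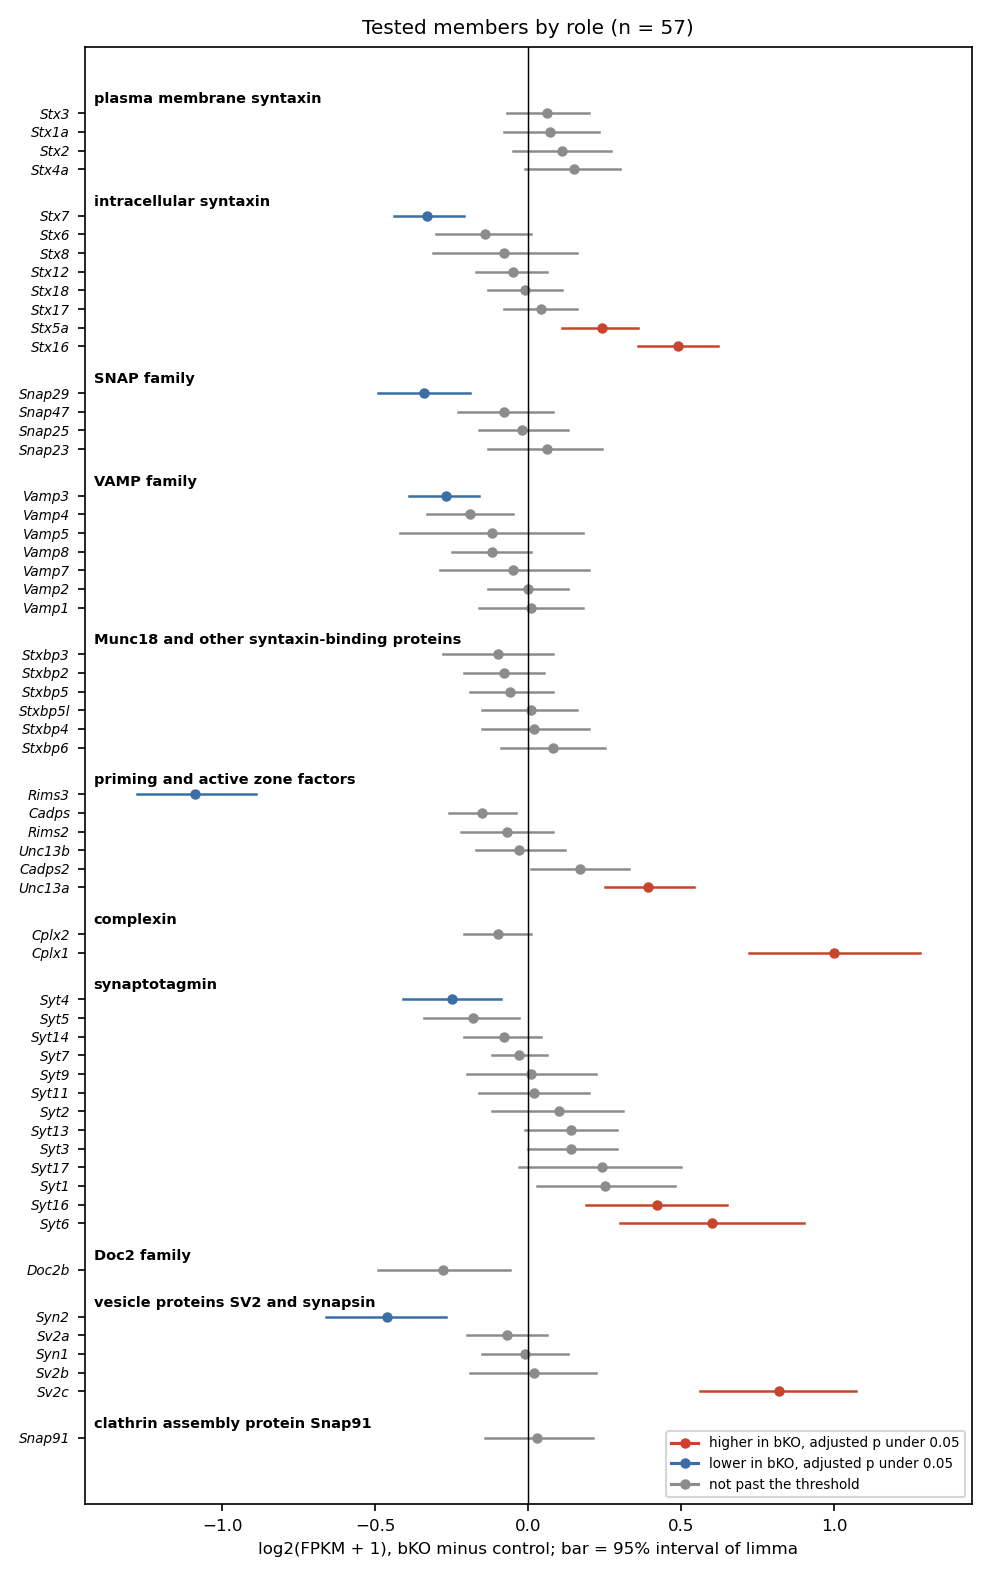
Difference between bKO and control on the log2(FPKM + 1) scale for 57 of the 58 tested members, grouped by role; points are limma estimates and bars their 95% intervals, not adjusted for the number of genes. Rims3 at -1.09 and Cplx1 at 1.0 lie farthest from zero, while Snap25, Stx1a and Vamp2, 3 SNAREs of granule fusion, sit near it.

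The choice of scaling matters for small differences. When libraries were scaled by their read totals, in place of the size factors the deposited values carry, the median of all genes moved to 0.13 and that of the members to 0.14. On that scale 17 members were higher and 3 lower, where 23.5% of all genes were higher and 4.68% lower. Rims3, Syn2 and Stx7 remained called as lower and all 7 higher members remained called. Read-total scaling moved the median of all genes upward, so the retained calls of the higher members carry no added weight. The calls of Snap29, Vamp3 and Syt4 were among those lost, each keeping its negative sign, at differences of -0.18, -0.10 and -0.08.

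**Figure D2:**
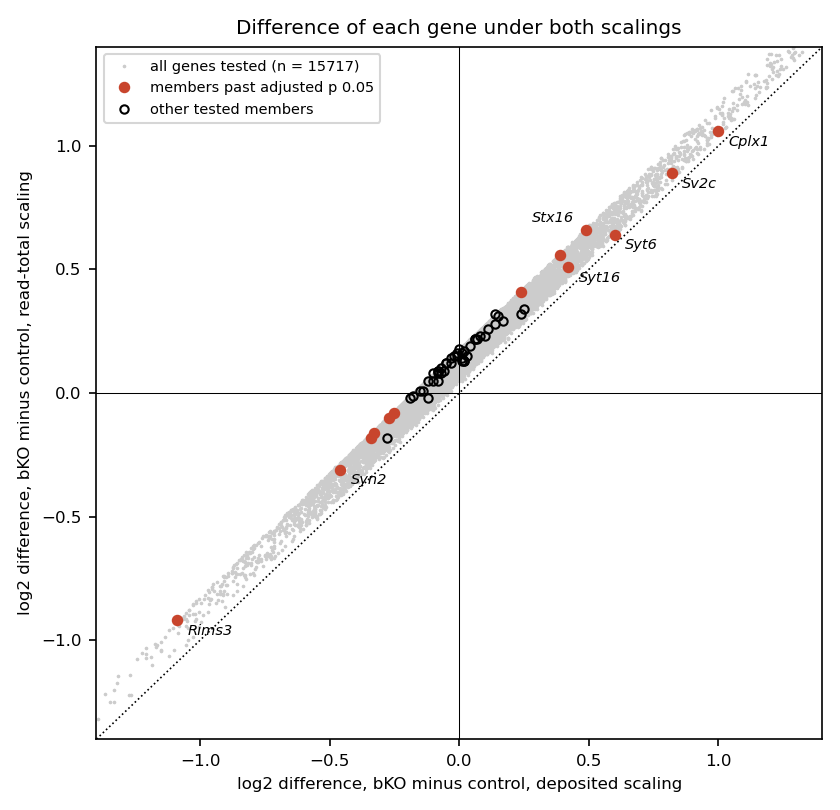
Difference between bKO and control (log2) with the deposited scaling on the horizontal axis and with read-total scaling on the vertical axis, for all 15717 genes tested (grey, 106 of them outside the axes), for the members drawn that pass an adjusted p of 0.05 (red) and for the other tested members (open). Nearly all points lie above the dotted line of equality, so members near zero change sign with the scaling while Rims3, Cplx1 and Sv2c do not.

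Snap25, Snap23, Vamp2 and the plasma membrane syntaxins tested did not pass the test with the deposited scaling. Snap25, the SNAP protein that beta cells share with neurons (chromosome 2, 136713453 to 136782428, GRCm38), was at 21.0, 21.4 and 23.3 FPKM in bKO and at 21.9, 21.0 and 23.8 FPKM in control. The libraries of the groups overlapped, and the 95% interval of the difference ran from -0.16 to 0.13 on the log2 scale. Vamp2, the granule SNARE synaptobrevin (chromosome 11, 69088490 to 69092384), was at 49.2, 48.0 and 44.4 FPKM in bKO and at 48.7, 48.1 and 44.5 FPKM in control, with an interval from -0.13 to 0.13. Stx1a, the main neuronal-type syntaxin of beta cells, averaged 5.17 ± 0.24 FPKM in bKO and 4.87 ± 0.34 FPKM in control (SD, n = 3 each), with an interval from -0.08 to 0.23. These levels were indistinguishable within the spread of the libraries, and under read-total scaling Vamp2 was called as higher (0.18, limma adjusted p = 0.042) while Snap25 and Stx1a were not. Of the other plasma membrane syntaxins, Stx3 was at 0.06, Stx2 at 0.11 and Stx4a at 0.15 on the log2 scale, with limma adjusted p = 0.49, 0.28 and 0.16. Read-total scaling called all 3 of them as higher, Stx3 at 0.22, Stx2 at 0.26 and Stx4a at 0.31 (limma adjusted p = 0.030, 0.036 and 0.016). Snap23, the broadly expressed relative of Snap25, averaged 11.1 ± 0.79 FPKM in bKO and 10.6 ± 0.97 FPKM in control (SD, n = 3 each).

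SNAREs of internal membranes changed in both directions. Stx16, a syntaxin of the trans-Golgi network (chromosome 2, 174076308 to 174099771), was at 26.4, 26.9 and 25.9 FPKM in bKO and at 17.1, 18.7 and 19.8 FPKM in control. The bKO libraries lay close together and above all control libraries, a rise of 0.49 on the log2 scale (standard error 0.056, limma adjusted p = 0.0021). Stx5a, the syntaxin of traffic from the endoplasmic reticulum to the Golgi, averaged 24.4 ± 1.4 FPKM in bKO and 20.5 ± 0.74 FPKM in control (SD, n = 3 each) and rose by 0.24 (limma adjusted p = 0.023). Its call was lost without bKO replicate 1 or control replicate 1, with limma adjusted p of 0.042 to 0.076 over the 6 fits that leave out a library.

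Stx7, a syntaxin of late endosomes and lysosomes (chromosome 10, 24149302 to 24190222), was at 18.6, 20.7 and 19.6 FPKM in bKO and at 25.4, 24.7 and 24.5 FPKM in control. The groups did not overlap and Stx7 fell by 0.33 on the log2 scale (standard error 0.047, limma adjusted p = 0.0050). Snap29, which serves fusion of autophagosomes and other internal membranes, fell to 7.49 ± 0.35 FPKM in bKO, against 9.73 ± 0.64 FPKM in control (SD, n = 3 each; limma adjusted p = 0.011). Vamp3, cellubrevin of recycling endosomes, is also listed here among the known exocytosis genes of beta cells. It fell to 21.7 ± 1.2 FPKM in bKO, against 26.3 ± 0.59 FPKM in control (SD, n = 3 each; limma adjusted p = 0.010). Macrophages also express endosomal SNAREs. Of 5 macrophage markers only Ctss was called, falling by 0.87 on the log2 scale. Lyz2, Csf1r and Adgre1 were at -0.41, -0.45 and -0.32 without passing (limma adjusted p = 0.050, 0.055 and 0.087). Cd68 was at 0.13 (limma adjusted p = 0.58). The summed level over the list was 20.9 to 26.2 FPKM in bKO and 38.5 to 40.3 FPKM in control. Most of it was Ctss, which averaged 13.1 FPKM in bKO and 24.8 FPKM in control. The part of macrophages in the lower Stx7, Snap29 and Vamp3 was not tested.

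The remaining internal SNAREs were Stx6, Stx8, Stx12, Stx17 and Stx18, with differences of -0.14 to 0.04 on the log2 scale, of which Stx17 was called as higher with read-total scaling (0.19, limma adjusted p = 0.043). Vamp4, a SNARE of the trans-Golgi network, was at 13.3 ± 1.0 FPKM in bKO and 15.3 ± 0.27 FPKM in control (SD, n = 3 each; limma adjusted p = 0.066), and voom called it as lower (limma adjusted p = 0.020). Vamp8, a granule and endosome SNARE, was at -0.12 (limma adjusted p = 0.17) and Vamp1, Vamp5 and Vamp7 were between -0.12 and 0.01. In bKO, Vamp7 was at 15.0 FPKM in replicate 1 and 19.6 and 19.8 FPKM in the others. The table places Vamp7 on the unplaced scaffold GL456233.1.

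**Figure D3:**
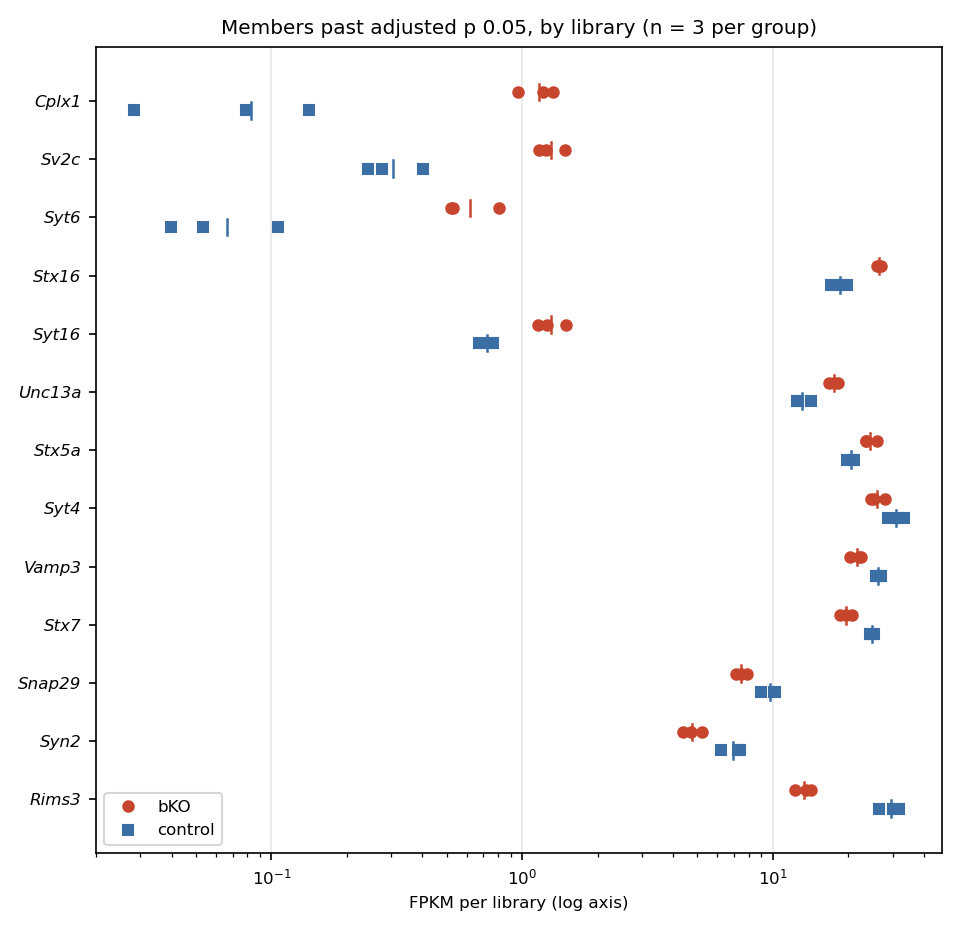
FPKM in each library (log axis) of 13 of the 14 members past an adjusted p of 0.05, ordered by their difference; circles are bKO, squares control and vertical ticks group means, with 3 libraries per group. Cplx1, Sv2c and Syt6 are under 0.5 FPKM in all control libraries, whereas the 6 lower members drawn and Stx16, Unc13a and Stx5a lie above 4 FPKM in every library.

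The largest fall was that of Rims3 (chromosome 4, 120854816 to 120896579), which encodes a short RIM protein of the active zone that keeps little more than a C2 domain. It was at 13.6, 14.2 and 12.2 FPKM in bKO and at 30.2, 31.9 and 26.4 FPKM in control. Every bKO library was below every control library, and Rims3 fell by 1.09 in log2 units (standard error 0.082; limma adjusted p = 0.00048). The bKO mean was 0.452 of the control mean. Among the 75 genes it ranked 22nd by mean FPKM in bKO and 8th in control. Rims2, the long RIM that beta cells use for docking and priming, averaged 6.41 ± 0.51 FPKM in bKO and 6.77 ± 0.26 FPKM in control (SD, n = 3 each), with an interval from -0.22 to 0.08. Rims3 therefore made up 66.5% ± 1.8 of the summed FPKM of the 4 RIM genes in bKO and 80.8% ± 0.95 in control (SD, n = 3 each). Rims1 and Rims4 were under 0.25 FPKM in every library.

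Unc13a, the Munc13 protein that opens syntaxin during priming (chromosome 8, 71624417 to 71671757), was at 18.2, 16.7 and 17.5 FPKM in bKO and at 12.5, 12.6 and 14.2 FPKM in control. It rose by 0.39 on the log2 scale with no overlap of the groups (SE 0.061, limma adjusted p = 0.0062). Exons of Colgalt1 on the opposite strand cover 3.92% of its exon bases. Unc13b, its paralog, averaged 4.18 ± 0.21 FPKM in bKO and 4.28 ± 0.16 FPKM in control (SD, n = 3 each), and Unc13d was near the filter. Of the CAPS genes, which prime dense-core granules, Cadps averaged 13.0 ± 0.34 FPKM in bKO and 14.6 ± 0.54 FPKM in control (limma adjusted p = 0.057). Cadps2 was at 2.04, 2.17 and 2.11 FPKM in bKO and at 1.73, 1.81 and 1.74 FPKM in control (limma adjusted p = 0.13). The CAPS genes thus did not pass the test, although the libraries of each did not overlap between the groups. Voom called Cadps as lower (-0.16, limma adjusted p = 0.010), and read-total scaling called Cadps2 as higher (0.29, limma adjusted p = 0.023).

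Of the syntaxin-binding proteins described here, none passed the test. Stxbp2 and Stxbp3, Munc18 proteins of broad expression, were at -0.08 and -0.10 on the log2 scale, and Stxbp5 and Stxbp5l, the tomosyns that compete with VAMP for syntaxin, at -0.06 and 0.01. Stxbp4 and Stxbp6 were at 0.02 and 0.08.

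The complexins differed in how they changed. Cplx1 (chromosome 5, 108518554 to 108550024) was at 1.21, 0.958 and 1.33 FPKM in bKO, from 51, 38 and 54 reads, and at 0.0284, 0.0795 and 0.141 FPKM in control, from 1, 3 and 5 reads. The groups were far apart, and the ratio of summed reads, corrected for size factors, was 14.1. Its exact binomial 95% interval, which covers counting error only, ran from 7.22 to 31.5. On the log2(FPKM + 1) scale, which understates changes of low genes, Cplx1 rose by 1.0 (SE 0.12, limma adjusted p = 0.0023). Cplx2, the most abundant complexin here and the second most abundant member, was at 105, 102 and 112 FPKM in bKO and at 117, 114 and 110 FPKM in control (limma adjusted p = 0.18). Cplx1 therefore stayed a small part of the family, at 1.08% ± 0.14 of its summed FPKM in bKO and 0.0738% ± 0.052 in control (SD, n = 3 each). Cplx3 had 13 reads in each group, and Cplx4 had 0 reads in bKO and 2 in control.

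Of the SV2 glycoproteins of vesicles and granules, the least abundant one rose. Sv2c (chromosome 13, 95954594 to 96132577), an SV2 protein of some neurons, was at 1.17, 1.48 and 1.25 FPKM in bKO and at 0.243, 0.275 and 0.401 FPKM in control. Every bKO library was above the control libraries, with a read ratio of 4.24 (95% counting interval 3.55 to 5.10) and a rise of 0.82 on the log2 scale (standard error 0.11, limma adjusted p = 0.0036). Sv2a, the main form in islets, averaged 30.9 ± 0.61 FPKM in bKO and 32.6 ± 2.3 FPKM in control, and Sv2b averaged 1.84 ± 0.23 FPKM in bKO and 1.80 ± 0.035 FPKM in control (SD, n = 3 each). Sv2c held 3.82% ± 0.39 of the summed SV2 level in bKO and 0.897% ± 0.31 in control (SD, n = 3 each).

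Among synapsins, which tether vesicles to the cytoskeleton, Syn2 (chromosome 6, 115134902 to 115282006) was at 4.72, 5.2 and 4.36 FPKM in bKO and at 7.36, 7.24 and 6.23 FPKM in control. It fell by 0.46 on the log2 scale without overlap (SE 0.083, limma adjusted p = 0.010). Syn1 averaged 16.9 ± 0.85 FPKM in bKO and 17 ± 0.98 FPKM in control (SD, n = 3 each). Syn3, under the filter, had 183 reads in bKO and 71 in control, and its exons share 1733 bases with Timp3 on the opposite strand. Exons of Timp4 cover 1.28% of the exon bases of Syn2.

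**Figure D4:**
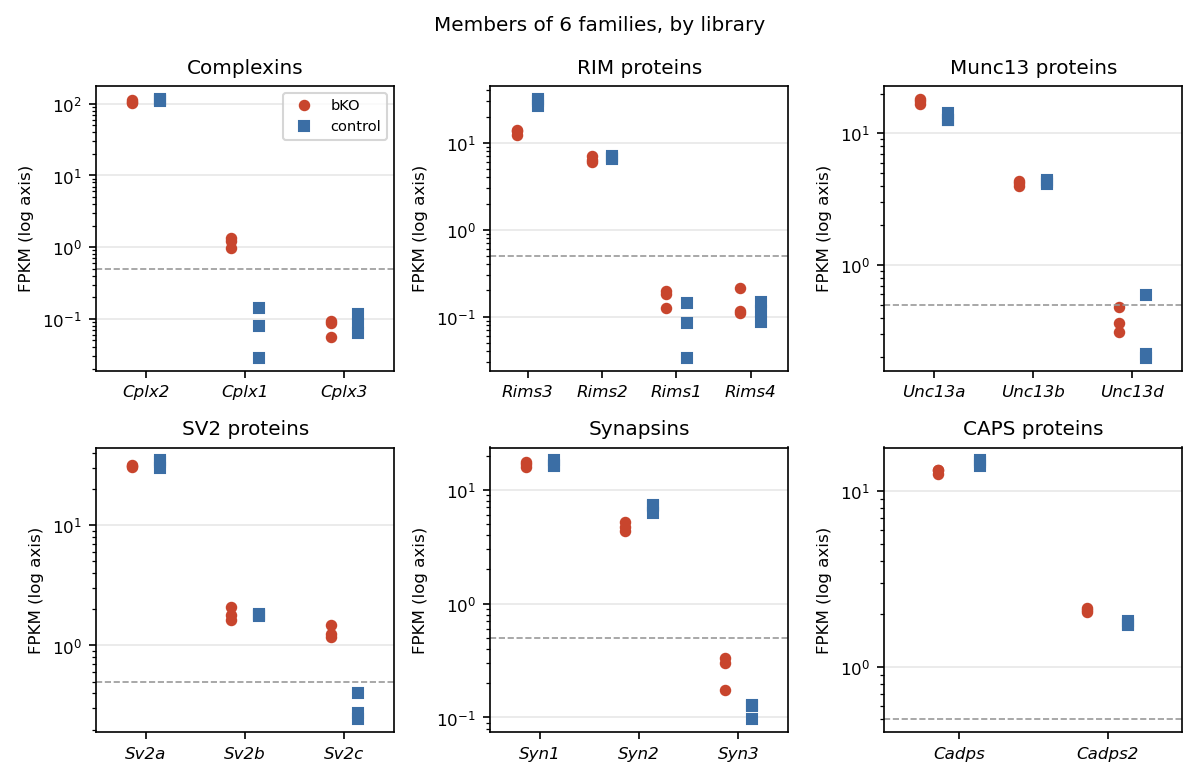
FPKM in each library (log axis) for members of 6 families, with bKO as circles and control as squares; the dashed line marks the filter of 0.5 FPKM, and Cplx4 and Unc13c are left out because they are at 0 in some libraries. In the complexin and SV2 panels the abundant members Cplx2 and Sv2a overlap between the groups while Cplx1 and Sv2c are higher in bKO; in the RIM and synapsin panels Rims3 and Syn2 are lower in bKO.

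Promoter windows are shown for the member with the largest fall and for the 3 tested members that were under the filter in every control library. Each runs from 250 bases before to 50 after a RefSeq transcription start on GRCm38.p6, and 56 of the 75 members had such a window. A stretch shortly after the start was found in a GENCODE vM21 transcript for Cplx1, Sv2c and Syt6, but not for Rims3. Capitals mark matches on either strand to the GC box GGGCGG, the E-box CACGTG or GGACAGC, the right part of the RE1 element bound by the repressor REST.
Rims3, chr4:120854549-120854848, plus strand: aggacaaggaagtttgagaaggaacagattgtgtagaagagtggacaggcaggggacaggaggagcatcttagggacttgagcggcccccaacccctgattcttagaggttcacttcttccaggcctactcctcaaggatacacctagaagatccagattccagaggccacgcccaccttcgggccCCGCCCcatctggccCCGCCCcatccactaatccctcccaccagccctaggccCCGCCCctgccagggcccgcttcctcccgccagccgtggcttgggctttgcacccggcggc
Cplx1, chr5:108549978-108550277, minus strand: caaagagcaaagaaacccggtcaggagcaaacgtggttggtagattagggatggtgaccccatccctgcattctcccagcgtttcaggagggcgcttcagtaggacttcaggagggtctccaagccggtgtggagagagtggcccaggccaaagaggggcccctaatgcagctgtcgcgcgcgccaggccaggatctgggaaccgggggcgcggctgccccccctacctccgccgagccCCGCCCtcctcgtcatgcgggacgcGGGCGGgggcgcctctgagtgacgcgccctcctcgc
Sv2c, chr13:96132528-96132827, minus strand: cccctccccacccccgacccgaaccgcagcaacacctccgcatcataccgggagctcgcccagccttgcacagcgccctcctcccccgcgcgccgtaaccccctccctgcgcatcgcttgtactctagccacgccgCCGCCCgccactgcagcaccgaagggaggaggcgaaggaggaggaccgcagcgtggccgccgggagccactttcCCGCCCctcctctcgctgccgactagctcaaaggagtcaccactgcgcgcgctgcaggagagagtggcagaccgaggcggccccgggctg
Syt6, chr3:103574995-103575294, plus strand: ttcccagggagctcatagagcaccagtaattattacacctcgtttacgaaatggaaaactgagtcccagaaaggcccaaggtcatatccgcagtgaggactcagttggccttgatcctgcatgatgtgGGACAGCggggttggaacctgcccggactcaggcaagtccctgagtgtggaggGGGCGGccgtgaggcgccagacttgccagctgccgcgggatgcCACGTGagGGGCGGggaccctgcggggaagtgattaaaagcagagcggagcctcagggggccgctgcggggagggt

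All 4 windows hold GC boxes, as do 73.2% of the 56 member windows and 35.7% of the 32851 windows of the table, which also cover noncoding genes. Member windows were also richer in G and C, with a median of 63.7% against 52.7%. The Syt6 window holds GGACAGC 122 bases before the start, a match found in 6.56% of all windows and in 3.57% of member windows. It also holds an E-box 26 bases before the start, found in 7.15% of all windows and in 14.3% of member windows. The left part of RE1, TCAGCACC (1.65% of all windows), the CRE TGACGTCA (1.79%) and the TATA box TATAAA (13.6%) were also searched on both strands and had no match in these 4 windows. The matches to different motifs do not overlap one another. Rest itself was under the filter, at 0.424 ± 0.030 FPKM in bKO and 0.407 ± 0.088 FPKM in control (SD, n = 3 each).

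Synaptotagmins were led by Syt13, a member without the calcium-binding residues of the classical sensors. Syt13 was the most abundant of all 75 genes, at 405, 413 and 444 FPKM in bKO and at 394, 401 and 352 FPKM in control. The groups did not overlap by a narrow margin, and the difference of 0.14 on the log2 scale did not pass (limma adjusted p = 0.17), although read-total scaling and voom called it. It took 75.5% ± 0.15 of the summed synaptotagmin level in bKO and 72.6% ± 1.4 in control (SD, n = 3 each). Syt7, the high-affinity calcium sensor of insulin granules, was at 51.7, 52.1 and 54.8 FPKM in bKO and at 54.8, 54.6 and 52.8 FPKM in control, an overlap with an interval from -0.12 to 0.06. With read-total scaling its sign turned and Syt7 was called as higher (0.14, limma adjusted p = 0.026). Syt9 averaged 6.04 ± 0.79 FPKM in bKO and 5.97 ± 0.30 FPKM in control, and Syt5 averaged 22.4 ± 1.8 FPKM in bKO and 25.5 ± 1.1 FPKM in control (SD, n = 3 each; limma adjusted p = 0.097 for Syt5, and 0.042 with voom).

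Syt4 (chromosome 18, 31437808 to 31447415), which in mouse beta cells is linked to maturation and lowers the calcium sensitivity of secretion, was at 24.7, 25.3 and 28.0 FPKM in bKO and at 31.3, 28.8 and 33.2 FPKM in control. The highest bKO library lay just below the lowest control library, and the fall of 0.25 on the log2 scale was near the threshold (SE 0.068, limma adjusted p = 0.044). The call was lost in 4 of the 6 fits that leave out a library (without bKO replicate 1 or 2 or control replicate 1 or 3), with limma adjusted p of 0.035 to 0.13. An antisense gene on the opposite strand shares 14.5% of its exon bases.

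Syt6 and Syt16 were higher in bKO from low control levels. Syt6, known for its part in sperm acrosome exocytosis (chromosome 3, 103575231 to 103645569), was at 0.518, 0.530 and 0.807 FPKM in bKO, from 58, 56 and 87 reads, and at 0.0533, 0.0398 and 0.106 FPKM in control, from 5, 4 and 10 reads. Its read ratio was 9.39 with a 95% counting interval of 5.86 to 15.9, and it rose by 0.60 on the log2(FPKM + 1) scale (limma adjusted p = 0.019). Exons of Atg4a-ps on the opposite strand share 8.67% of its exon bases. Syt16, another member without calcium binding, was at 1.26, 1.16 and 1.5 FPKM in bKO and at 0.672, 0.743 and 0.763 FPKM in control, a rise of 0.42 (limma adjusted p = 0.026). Both sets of groups did not overlap, but the call of Syt6 was lost without bKO replicate 3 or control replicate 1 or 2, and that of Syt16 without any library except bKO replicate 2, with limma adjusted p of up to 0.060 and 0.081.

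Syt1, the fast sensor of neurons, averaged 1.13 ± 0.078 FPKM in bKO and 0.789 ± 0.11 FPKM in control (SD, n = 3 each; limma adjusted p = 0.11) and was called as higher by voom (limma adjusted p = 0.014) and with read-total scaling (0.34, limma adjusted p = 0.038). Syt2, Syt3, Syt11, Syt14 and Syt17 were between -0.08 and 0.24 on the log2 scale and did not pass, though Syt3 was called as higher with read-total scaling (0.28, limma adjusted p = 0.017). Doc2b, a soluble calcium sensor of insulin secretion, was at 0.979, 1.09 and 1.18 FPKM in bKO and at 1.59, 1.61 and 1.36 FPKM in control. Its groups did not overlap, with a difference of -0.28 on the log2 scale (limma adjusted p = 0.073), and voom called it as lower (limma adjusted p = 0.039). Snap91, a clathrin assembly protein that shares only its name with the SNAP family, was at 0.03.

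17 members were under the filter. Syt8 and Syt10 had 0 reads in all libraries, and Cplx4 and Unc13c had at most 3 reads per group. Beside Syn3, the others included Doc2a, Doc2g, Vamp9, Cplx3, Stx11, Stx19, Rims1, Rims4, Unc13d, Syt12 and Syt15, none with a group mean above 0.41 FPKM.

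Cplx1, Sv2c and Syt6 are known from neurons, and markers of neurons and glia moved with them. Of 6 neuron markers 4 were tested, Prph and Tubb3 rose, by 2.08 and 0.60 on the log2 scale, and 0 fell, with a summed level of 41.3 to 46.0 FPKM in bKO and 32.7 to 33.1 FPKM in control. Th was at 20.0 ± 1.1 FPKM in bKO and 20.2 ± 0.38 FPKM in control, and Elavl3 was under the filter at 0.117 ± 0.011 FPKM in bKO and 0.0290 ± 0.012 FPKM in control (SD, n = 3 each). Of 7 Schwann cell and glia markers 6 were tested and 3 rose (Ngfr, Foxd3 and Cdh19), with a summed level of 8.03 to 10.3 FPKM in bKO and 5.06 to 7.25 FPKM in control. Prph, Ngfr, Foxd3 and Cdh19 passed the filter only through their bKO libraries, so their rises carry no weight as a count, and Foxd3 and Cdh19 lost their calls in 5 of the 6 fits that leave out a library. The PP-cell hormones Ppy and Pyy rose, with a summed level of 11071 to 14102 FPKM in bKO and 5336 to 7062 FPKM in control. Of 5 alpha-cell markers 1 rose (Irx2, lost in 4 of the 6 such fits) and 1 fell, and of 3 delta-cell markers 0 changed. Of 6 beta-cell markers 4 fell (Ins1, Ins2, Slc30a8 and Nkx6-1). Ins2 was near the threshold (limma adjusted p = 0.046) and its call was lost in 5 of the 6 fits that leave out a library, with limma adjusted p of up to 0.19, and Ins1 lost its call in 1 of them. With no filter on low values neither insulin gene nor Ppy was called (limma adjusted p = 0.97 for Ins2, 0.88 for Ins1 and 0.15 for Ppy). The part of these cells in the members' differences was not tested.

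The other cell types checked were endothelial (2 of 5 markers rose, Plvap and Cdh5, each call lost in 5 of the 6 fits that leave out a library), mesenchymal (1 of 4 rose), acinar (0 of 5 tested changed) and mast cells and lymphocytes (1 of 2 tested fell, Cd79a). No marker of these lists was at 0 in all libraries.

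A list of 69 partner genes of exocytosis and SNARE recycling was read from the same fit. Of 61 tested, 2 rose (3.28%) and 11 fell (18%), beside 8.96% and 11.4% of all genes, and the median difference was -0.06. With read-total scaling 10 of 62 tested were higher (16.1%) and 5 lower (8.06%), beside 23.5% and 4.68% of all genes. The counts of partner genes thus moved with those of all genes. Under both scalings the share higher was below that of all genes and the share lower above it. The list was chosen with earlier results of these data known, so these shares carry no independent weight. Rimbp2, which links RIM proteins to calcium channels, rose to 90.1 ± 2.2 FPKM in bKO, against 72.3 ± 1.2 FPKM in control (SD, n = 3 each; limma adjusted p = 0.0019). Napb, a cofactor of the SNARE-disassembling ATPase Nsf, rose by 0.40 on the log2 scale, a call lost in every fit that leaves out a library. Baiap3, a Munc13 relative of dense-core granules, fell to 31.7 ± 0.91 FPKM in bKO, against 44.6 ± 1.4 FPKM in control (SD, n = 3 each; limma adjusted p = 0.00067). The active-zone scaffold gene Pclo fell by 0.28, and the vesicle protein genes Synpr and Syngr1 by 0.65 and 0.31. The calls of Pclo and Syngr1 were lost with read-total scaling (limma adjusted p = 0.12 and 0.089). Sytl4, Mlph and Rab27a also fell, and were called in all 6 fits that leave out a library and with read-total scaling. The falls of Rab3d, Gosr2, Pacsin1 and Snapin, of 0.17 to 0.27 on the log2 scale, were near the threshold. Those of Rab3d, Gosr2 and Pacsin1 were lost in 5 of the 6 fits that leave out a library and that of Snapin in all 6, and all 4 were lost with read-total scaling (limma adjusted p of 0.19 to 0.99).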

How the data were processed

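The submitters' processing notes list CASAVA, HISAT2 2.0.5, featureCounts 1.5.0-p3, DESeq2 1.20.0 and the builds GRCm38 and mm10, with no role or order. The authors deposited FPKM for 54532 genes. 100% of the deposited FPKM values above 0, multiplied by gene length and 1 factor per library, came to whole reads within 0.01, and these factors were median-of-ratios size factors times 1 constant. Intervals from recovered reads are exact binomial at 95% and cover counting error only. 0 columns of other samples were present.

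Genes with at least 0.5 FPKM in at least 3 libraries were tested with limma 3.58.1 (R 4.3.3) on log2(FPKM + 1), bKO against control, with a mean-variance trend, no covariate and Benjamini-Hochberg adjustment over all genes at 0.05. Python 3.11.15, pandas 2.3.3 and numpy 2.4.6 were used for the rest, and the fit was tested on simulated data. A few genes are not reported here singly or drawn, but are counted. No p is given for levels summed over members. Replicates differed from each other by more than sampling noise (chi-square per degree of freedom 4.09 to 6.50).

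Positions are those of the table. Overlapping exons were found in GENCODE vM21, which holds all 75 members, 71 with the same start and end. Members, roles and lists were chosen with earlier results of these data known. Genes described in full were 25 known exocytosis genes of beta cells and up to 10 called members per direction with the largest difference and groups that do not overlap.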

Additional observations from a re-analysis of the deposited data

How the results depend on the processing

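With read-total scaling, 3702 genes were higher and 737 lower in bKO, 17 and 3 of the members and 10 and 5 of the partner genes. Syt7, not called at -0.03 with the deposited scaling, was then reversed and called as higher (0.14, limma adjusted p = 0.026). With scaling by reads outside hormone genes, chosen after seeing the data, 13 of the 14 called members remained called, all but Syt4. There, 4 partner genes were higher (6.45%) and 7 lower (11.3%), beside 11.6% and 8.11% of all genes. Voom on recovered reads kept all 14 and called 9 members higher and 11 lower, with 5 partner genes higher. With no filter 1 partner gene was higher and 7 lower, and Syt4 and Syt16 were not called. Pseudocounts of 0.1 and 0.5 called the same 14 members. A filter of 1 FPKM left Cplx1 and Syt6 untested. Leaving out each library in turn gave 852 to 1179 genes higher and 1037 to 1604 lower, 4 to 7 members higher and 6 to 8 lower, and 1 to 2 partner genes higher and 7 to 10 lower; the lowest count of members, 4 higher and 6 lower, was without control replicate 1. With the replicate number as a block 925 genes were higher and 1152 lower, 4 members higher and 7 lower (Stx5a, Syt6 and Syt16 lost) and 1 partner gene higher and 7 lower. Deviations of same-numbered libraries correlated at -0.07 to -0.01, so the numbers were not read as pairs. Rims3, Cplx1, Sv2c, Unc13a, Stx16, Stx7 and Syn2 were called in every setting that tested them. Of these, Cplx1 and Sv2c passed the filter only through their bKO libraries, so their repeated calls carry no added weight. Some of these fits held fewer genes or libraries, and the cause of the shifts between settings was not tested.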
